A study of Mus musculus with 8 samples.

Results

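The Gimap genes encode a small family of GTPases that sit side by side in a single chromosomal cluster. Members were the rows of the expression table whose platform annotation gave exactly 1 of the symbols Gimap1, Gimap3, Gimap4, Gimap5, Gimap6, Gimap7, Gimap8 and Gimap9. This found 8 genes among the 19938 genes with a row of their own. The members were chosen by symbol and, for a gene with several rows, by mean level across the arrays. Each of the 8 had 1 row, so that second criterion chose nothing, and no row was left out for a low value, so all 8 were tested. The family was picked with earlier results of these data known; its rule used no difference between groups. The samples were sorted mouse bone marrow progenitors from mice aged 7 weeks and backcrossed to C57BL6. In the knockout (KO, Vav1-iCre x Cbfb(F/F)), both alleles of Cbfb, the shared partner subunit of the Runx transcription factors, were floxed; in the control (Het, Vav1-iCre x Cbfb(F/+)) 1 allele was floxed and the other intact. All animals therefore carried the same Cre, whose Vav1 promoter is active across blood cells; Het animals could lose 1 Cbfb allele, and no Cre-free wild type was analysed here. GMP, the granulocyte and macrophage progenitors, and LSK, the fraction with stem cells and multipotent progenitors, came, per the design text, from 2 mice of each genotype, though no label says which array belongs to which mouse. There were 4 groups (KO GMP, Het GMP, KO LSK, Het LSK) of 2 arrays each. The transcript clusters of the members are 10538138 (Gimap1), 10544588 (Gimap3), 10538126 (Gimap4), 10538142 (Gimap5), 10544583 (Gimap6), 10538135 (Gimap7), 10538115 (Gimap8) and 10538123 (Gimap9).

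GIMAP proteins (GTPases of immunity-associated proteins) share a guanine nucleotide binding domain of the AIG1 type, and several are anchored in membranes of the endoplasmic reticulum, Golgi, mitochondria or lysosomes. They are best known from lymphocytes, where they bear on survival: loss of Gimap5 causes lymphopenia in the rat and, in the mouse, also harms blood stem cells, and Gimap1 is needed for mature mouse B and T cells. Gimap3 is the closest relative of Gimap5 in the mouse, Gimap4 hastens T cell death, and Gimap6 binds an autophagy adaptor of the GABARAP type. Gimap7, Gimap8 and Gimap9 are less well described.

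The 250 bases before the start site of the 5 members that passed the test between KO and Het in GMP or LSK are shown first, because Runx proteins with Cbfb bind DNA directly and these are the stretches nearest to where transcription begins. The sequences are RefSeq's on build GRCm38.p6, which matched all 8 members by symbol, and run 5′ to 3′ on the strand of the gene. They are Gimap9 (chr6:48675885-48676134, plus strand), Gimap4 (chr6:48684328-48684577, plus strand), Gimap6 (chr6:48708245-48708494, minus strand), Gimap7 (chr6:48718371-48718620, plus strand) and Gimap1 (chr6:48738797-48739046, plus strand). Capitals mark a match to the RUNX core motif.
Gimap9: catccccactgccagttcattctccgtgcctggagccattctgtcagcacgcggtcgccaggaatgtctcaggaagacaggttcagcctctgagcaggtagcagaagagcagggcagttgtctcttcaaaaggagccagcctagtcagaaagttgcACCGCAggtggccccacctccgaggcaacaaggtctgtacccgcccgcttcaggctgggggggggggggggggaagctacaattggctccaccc
Gimap4: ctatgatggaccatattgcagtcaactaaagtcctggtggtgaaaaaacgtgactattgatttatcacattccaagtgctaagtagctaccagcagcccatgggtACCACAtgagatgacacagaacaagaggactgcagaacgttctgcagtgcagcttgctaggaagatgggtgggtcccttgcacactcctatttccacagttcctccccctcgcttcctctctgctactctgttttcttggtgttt
Gimap6: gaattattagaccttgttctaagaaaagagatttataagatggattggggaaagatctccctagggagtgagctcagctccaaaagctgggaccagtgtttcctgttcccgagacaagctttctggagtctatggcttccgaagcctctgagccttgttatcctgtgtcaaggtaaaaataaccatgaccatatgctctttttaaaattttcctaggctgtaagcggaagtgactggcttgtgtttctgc
Gimap7: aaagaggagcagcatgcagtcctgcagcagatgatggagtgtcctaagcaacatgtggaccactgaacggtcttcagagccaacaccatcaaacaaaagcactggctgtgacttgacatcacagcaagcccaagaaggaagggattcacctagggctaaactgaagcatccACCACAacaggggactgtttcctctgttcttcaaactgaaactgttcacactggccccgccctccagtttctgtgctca
Gimap1: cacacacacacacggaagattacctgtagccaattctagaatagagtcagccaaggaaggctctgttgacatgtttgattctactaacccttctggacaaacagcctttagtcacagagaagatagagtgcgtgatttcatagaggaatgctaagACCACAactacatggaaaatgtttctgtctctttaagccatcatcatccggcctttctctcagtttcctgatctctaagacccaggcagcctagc
The RUNX core was searched as TGTGGT or TGCGGT on both strands. It was found once each in Gimap9, Gimap4, Gimap7 and Gimap1, on the opposite strand in all 4, at 94 to 89, 145 to 140, 79 to 74 and 95 to 90 bases before the start. None of these letters stood in the window of Gimap6, nor in those of Gimap3, Gimap5 and Gimap8 (the last has 2 start sites in the table). Thus 4 of the 8 members held a match, and 18.6% of all 32851 promoter windows of this length did. The ETS core (AGGAAG or CGGAAG, both strands) was found in all 8 members and in 39.2% of all windows, and a GATA core (AGATAA or TGATAA, both strands) in 1 member, Gimap4, and in 16.6% of all windows. No match of one motif overlapped a match of another in the members. A match describes the letters and shows no binding.

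Values are log2 expression values on Affymetrix Mouse Gene 1.0 ST arrays, made by the authors with RMA (robust multi-array average), in which 1 unit is a doubling; means carry the SD over 2 arrays. Array medians over the 21789 rows with 1 gene symbol lay between 4.92 and 5.09, and arrays of one group correlated at 0.990 to 0.995 across rows. RMA gives no detection call, so a low value is not shown to be expression and changes at that end are understated. The number of arrays limits the precision. Differences are log2 differences fitted with limma over all 8 arrays, and a gene passed, rose or fell where its p, adjusted over all 21789 rows, was below 0.05. The targeted gene Cbfb (transcript cluster 10574632) passed as lower in KO in GMP and missed the threshold in LSK: it read 6.48 and 6.96 in KO GMP, against 7.53 and 7.65 in Het GMP (difference -0.86, adjusted p = 0.013), and 6.93 and 6.98 in KO LSK, against 7.56 and 7.55 in Het LSK (difference -0.60, adjusted p = 0.0557). In GMP the adjusted p for Cbfb was 0.0689 to 0.104 once Het GMP replicate 1, Het GMP replicate 2 or KO GMP replicate 1 was dropped, and 0.0632 when rows without a single symbol were tested too. Of 11 measured granulocyte and monocyte progenitor markers, 8 were higher in GMP than in LSK in KO and 10 in Het, beside 3.66% and 7.9% of all rows. Kit, part of the usual LSK gate, differed in GMP from LSK by -0.84 in KO (adjusted p = 0.0116) and by -0.99 in Het (adjusted p = 0.00187). Of 5 listed sort markers 3 had a row under the listed symbol (Kit, Cd34 and Cd48), and Ly6a, the Sca1 gene, was not among them. Cd34 differed in GMP from LSK by -1.275 in KO (adjusted p = 0.00153) and by -1.283 in Het (adjusted p = 0.000499). For Cd48 it was -1.075 in KO (adjusted p = 0.00673) and -0.32 in Het (adjusted p = 0.262). Between KO and Het in LSK, Cd48 rose by 1.415 (adjusted p = 0.00107), and Kit and Cd34 did not pass. These 3 genes do not check how well the sort separated LSK from GMP. In these bulk samples fewer cells of a type and less RNA per cell cannot be told apart.

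The comparison of KO with Het in LSK asked how the family differed between genotypes in the stem and multipotent progenitor fraction. The members went in opposite directions: Gimap4 and Gimap9 rose, Gimap7 fell, and 5 did not pass. Gimap4, which promotes T cell death, read 8.09 and 7.73 in KO LSK, against 5.77 and 5.501 in Het LSK. Every KO array stood well above every Het array, a rise of 2.28 (SE 0.17, adjusted p = 7.98e-05) or 4.85-fold by limma. Gimap7 read 4.71 and 3.95 in KO LSK, against 6.04 and 5.88 in Het LSK. The 2 KO arrays differed from each other more than the Het arrays did, yet both lay below them, and the gene fell by 1.63 (SE 0.22, adjusted p = 0.00203). Gimap9 read 8.67 and 8.62 in KO LSK, against 7.83 and 7.85 in Het LSK, a rise of 0.81 (SE 0.13, adjusted p = 0.0063) with tight replicates in both genotypes.

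Gimap6 and Gimap1 did not pass in LSK. Gimap6, the autophagy-linked member, read 9.21 and 8.69 in KO LSK, against 8.998 and 9.26 in Het LSK, and Gimap1, a survival factor of mature lymphocytes, read 7.85 and 7.72 in KO LSK, against 7.76 and 7.86 in Het LSK. The arrays of the 2 genotypes overlapped for both genes, and the differences were -0.18 (SE 0.20, adjusted p = 0.713) and -0.025 (SE 0.12, adjusted p = 0.945). Gimap8 overlapped as well, at 6.64 and 6.07 in KO LSK, against 6.13 and 6.08 in Het LSK (difference 0.25, adjusted p = 0.547). For Gimap5, the member linked to lymphopenia, the KO arrays stood under the Het arrays at 4.91 and 4.69, against 5.39 and 5.58 in Het LSK, but the difference of -0.68 (SE 0.18, adjusted p = 0.053) missed the threshold. Its relative Gimap3 read 5.27 and 4.55 in KO LSK, against 3.74 and 4.44 in Het LSK, and the difference of 0.83 (SE 0.28, adjusted p = 0.136) was close to the spread within the groups. Gimap3 passed without KO LSK replicate 2 (1.18, adjusted p = 0.0469), and Gimap5 did so with either 1 of the Het GMP arrays dropped (adjusted p = 0.0279).

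Of the 8 members, 3 thus passed in LSK (2 rose, 1 fell), a share of 37.5%, beside 7.73% of all rows tested (3.02% higher and 4.71% lower in KO). The groups did not overlap for 5 members, 3 higher and 2 lower in KO, where this held for 45.5% of all rows (22.8% higher, 22.7% lower). The median difference of the members was 0.11 and that of all rows 0.0096, with 4 members above and 4 below 0. The plot of each gene on each array shows these values.

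**Figure D1:**
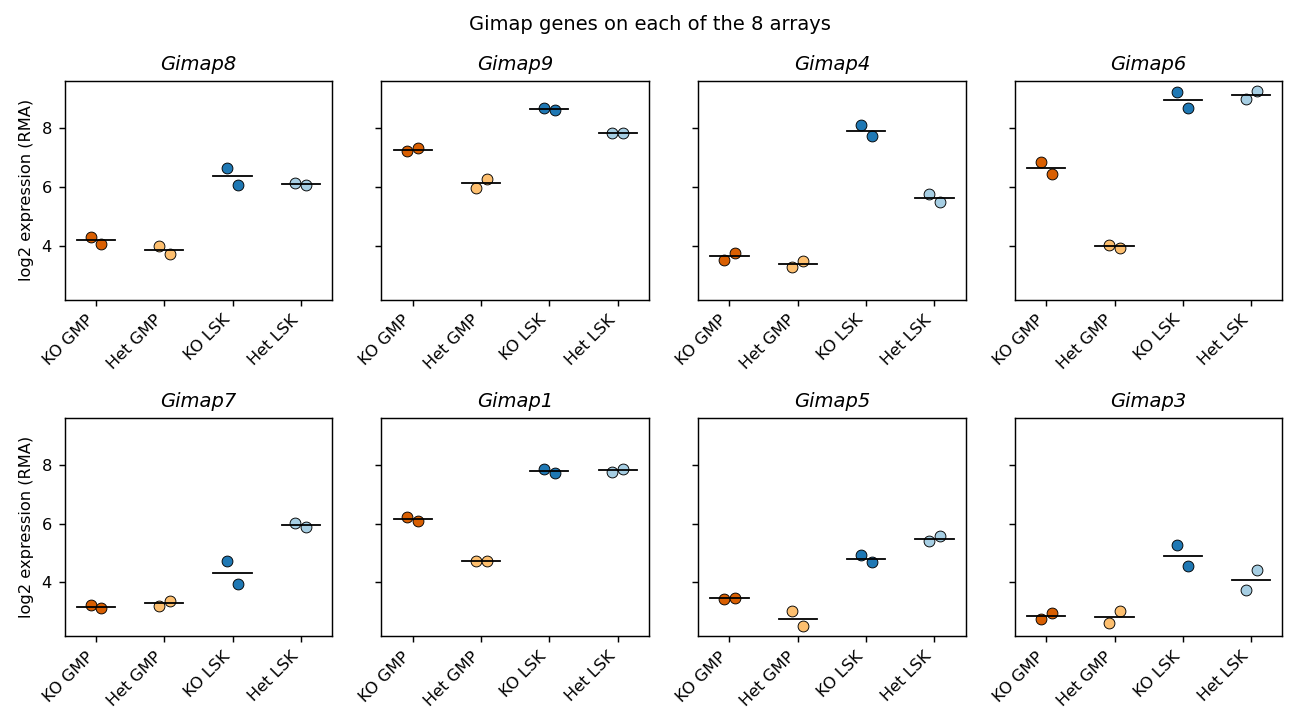
Log2 expression (RMA) of each Gimap gene on each array, with 1 point per array, a line at the group mean and genes in chromosome order; groups are KO GMP, Het GMP, KO LSK and Het LSK. Gimap4 is highest in KO LSK (8.09 and 7.73), Gimap6 reads 6.83 and 6.44 in KO GMP against 4.04 and 3.92 in Het GMP, and every member is lower in GMP than in LSK of the same genotype.

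In GMP the comparison of KO with Het gave changes in 1 direction only among the members that passed. Gimap6, Gimap1 and Gimap9 rose, no member fell, and 5 did not pass. Gimap6 read 6.83 and 6.44 in KO GMP, against 4.04 and 3.92 in Het GMP. This was the widest gap in the family between genotypes, a rise of 2.66 (SE 0.20, adjusted p = 0.000103) or 6.31-fold. Gimap1 read 6.22 and 6.09 in KO GMP, against 4.74 and 4.72 in Het GMP, a rise of 1.43 (SE 0.12, adjusted p = 0.000171). Gimap9 read 7.22 and 7.31 in KO GMP, against 5.96 and 6.28 in Het GMP, a rise of 1.15 (SE 0.13, adjusted p = 0.00105). The arrays of the 2 genotypes lay apart for all 3 genes. Gimap6 averaged 6.64 ± 0.28 in KO GMP and 3.98 ± 0.08 in Het GMP (SD, n = 2 each), so its Het values lay below the array median and its KO values above it.

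Gimap4 and Gimap7, which changed most in LSK, did not pass in GMP. Gimap4 read 3.52 and 3.77 in KO GMP, against 3.27 and 3.48 in Het GMP (difference 0.27, SE 0.17, adjusted p = 0.493), and Gimap7 read 3.25 and 3.11 in KO GMP, against 3.21 and 3.38 in Het GMP (difference -0.11, SE 0.22, adjusted p = 0.869). All of these values lay under the array medians. Gimap5 read 3.44 and 3.47 in KO GMP, against 3.03 and 2.51 in Het GMP. The groups did not overlap, and the difference of 0.68 (SE 0.18) missed the threshold (adjusted p = 0.0631) but passed without Het GMP replicate 1 (0.95, adjusted p = 0.0289). Gimap8 read 4.30 and 4.07 in KO GMP, against 3.98 and 3.72 in Het GMP (difference 0.34, adjusted p = 0.446), and Gimap3 overlapped between genotypes at 2.77 and 2.96 in KO GMP, against 2.63 and 3.04 in Het GMP (difference 0.029, adjusted p = 0.975).

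In GMP 3 of 8 members passed, or 37.5%, beside 6.02% of all rows (3.45% higher and 2.57% lower in KO). For 6 members both KO arrays lay above both Het arrays and for 0 below, where 51.3% of all rows did not overlap (23.4% higher and 27.9% lower in KO). The median difference of the members was 0.51, beside -0.017 for all rows.

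Whether the effect of the genotype differed between the cell types was tested as the interaction in limma, the KO minus Het difference in GMP minus that in LSK. It passed for 5 members (62.5%), 4 with a positive and 1 with a negative value, beside 2.29% of all rows (1.69% positive and 0.601% negative). For Gimap6 it was 2.83 (SE 0.28, adjusted p = 0.00235) and for Gimap1 1.45 (SE 0.17, adjusted p = 0.00396): both genes rose in GMP and differed by -0.18 and -0.025 in LSK. For Gimap4 it was -2.01 (SE 0.24, adjusted p = 0.00466), the reverse case, with a difference of 0.27 in GMP and a rise in LSK. In GMP the values of Gimap4, Gimap7 and Gimap5 lay under the array medians in both genotypes, where changes are understated. What this did to their interactions was not tested. Gimap7 (1.52, SE 0.31, adjusted p = 0.0438) and Gimap5 (1.37, SE 0.25, adjusted p = 0.0284) also passed. For Gimap5 the differences had opposite signs, 0.68 in GMP and -0.68 in LSK. These last calls were weak: that of Gimap7 was lost with any 1 of the 4 GMP arrays or of the Het LSK arrays dropped (adjusted p = 0.115 to 0.169), and that of Gimap5 with KO LSK replicate 2, Het GMP replicate 2 or any 1 of the KO GMP or Het LSK arrays dropped (adjusted p = 0.0611 to 0.115). Gimap9, which rose in both cell types (1.15 in GMP, 0.81 in LSK), had an interaction of 0.34 (SE 0.19, adjusted p = 0.515), and Gimap8 (0.082, adjusted p = 0.952) and Gimap3 (-0.80, adjusted p = 0.457) did not pass either.

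Between the cell types the members shared a direction, though not the size of the difference. All 8 members were lower in GMP than in LSK, in KO and in Het alike, and all 8 passed in both genotypes, beside 6.05% of all rows in KO (3.66% higher and 2.39% lower) and 17.5% in Het (7.9% higher and 9.6% lower). In every case both GMP arrays lay below both LSK arrays, as 26% of all rows did in KO and 28.2% in Het. Rows that did not overlap in either direction made up 47.5% in KO (21.5% higher) and 57.9% in Het (29.7% higher). The median difference was -1.84 in KO and -2.46 in Het, beside -0.021 and 0.0066 for all rows. Gimap6 had the widest gap in Het: it averaged 3.98 ± 0.08 in Het GMP and 9.13 ± 0.18 in Het LSK (SD, n = 2 each), a difference of -5.15 (SE 0.20, adjusted p = 2.79e-06) or 35.5-fold. In KO the widest gap was that of Gimap4, which averaged 3.64 ± 0.18 in KO GMP and 7.91 ± 0.25 in KO LSK (SD, n = 2 each) with a difference of -4.27 (SE 0.17, adjusted p = 4.18e-06) or 19.3-fold. The same 2 genes had the gaps most changed by genotype: the difference of Gimap6 was -2.32 in KO and -5.15 in Het, and that of Gimap4 was -4.27 in KO and -2.26 in Het.

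The differences of the other members ran from -2.17 to -1.15 in KO and from -3.08 to -1.25 in Het. Gimap1 differed by -1.63 in KO and by -3.08 in Het, Gimap7 by -1.15 in KO and by -2.67 in Het, and Gimap5 by -1.35 in KO and by -2.71 in Het (the interaction, which is also the test of these gaps, is given above). Gimap8 differed by -2.17 in KO and by -2.25 in Het, and Gimap9 by -1.38 in KO and by -1.72 in Het; neither gap was shown to depend on genotype. Gimap3 differed by -2.05 in KO and by -1.25 in Het. Its Het call did not hold when Het LSK replicate 2 (-0.90, adjusted p = 0.116) or Het GMP replicate 1 (-1.05, adjusted p = 0.122) was dropped, nor did the KO call of Gimap7 when KO GMP replicate 1 (adjusted p = 0.0729) or KO GMP replicate 2 (adjusted p = 0.110) was dropped. Subtracting array medians moved the median of all rows by 0.155 in Het; after that scaling the members differed by -1.10 to -4.99 in Het, with all 8 still passing.

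**Figure D2:**
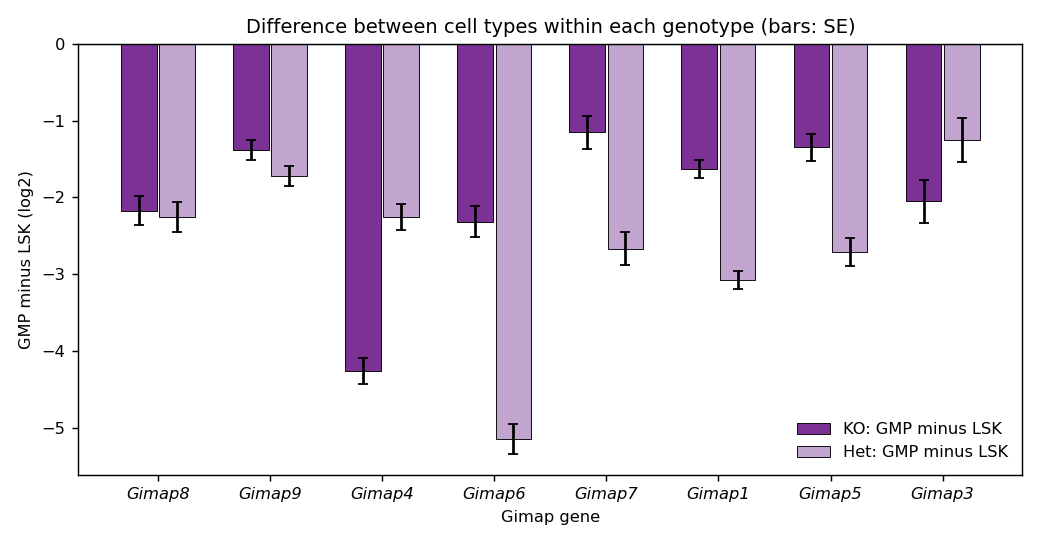
GMP minus LSK difference (log2) for each Gimap gene within KO (dark bars) and within Het (light bars), with limma's SE as error bars and genes in chromosome order. All bars are below 0; Gimap6 is at -2.32 in KO and -5.15 in Het, and Gimap4 at -4.27 in KO and -2.26 in Het.

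The levels within a gene can be ordered over the 4 groups. For Gimap1 and Gimap6 the order from high to low was LSK of both genotypes, whose arrays overlapped, then KO GMP, then Het GMP. For Gimap9 all 4 groups lay apart, from KO LSK through Het LSK and KO GMP to Het GMP. For Gimap4 KO LSK stood above Het LSK, and both GMP groups lay at the bottom with a difference that did not pass. For Gimap7 and Gimap5 it was Het LSK that stood above KO LSK, without a call between them for Gimap5, and GMP lay at the bottom. For Gimap8 and Gimap3 the only calls were those between GMP and LSK.

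The members lie next to each other in the RefSeq gene order of GRCm38.p6: Gimap8, Gimap9, Gimap4, Gimap6, Gimap7, Gimap1, Gimap5 and Gimap3, of which Gimap6 and Gimap3 are read from the minus strand. Neighbours within the cluster did not change alike. In LSK the rise of Gimap4 (2.28) lay next to Gimap6 (-0.18), followed by the fall of Gimap7 (-1.63) and Gimap1 (-0.025). In GMP the rises of Gimap6 and Gimap1 lay on either side of Gimap7 (-0.11). Beyond the cluster, the 6 nearest named coding genes with a row on each side (12 in all) were taken as surroundings. Of these, 2 rose and 0 fell in GMP, where 3.45% of all rows rose and 2.57% fell. The risers were Tmem176b (0.77, adjusted p = 0.00433) and Tmem176a (0.87, adjusted p = 0.00559), a pair of overlapping genes for membrane proteins of the MS4A-like type just past Gimap3. Both were also lower in GMP than in LSK, with differences of -1.02 and -1.04 in KO and of -1.59 and -1.63 in Het. With Het GMP replicate 2 dropped, Tmem176a missed the threshold between KO and Het (adjusted p = 0.0523).

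In LSK 1 of the 12 rose (Doxl1, 0.61, adjusted p = 0.0211) and 1 fell (Repin1, -0.44, adjusted p = 0.0465), where 3.02% of all rows rose and 4.71% fell. Doxl1 averaged 3.44 in KO LSK and 2.83 in Het LSK, and it missed the threshold with Het LSK replicate 1 or either KO LSK array dropped (adjusted p = 0.0544 to 0.140). The Repin1 call was lost with any single array left out (adjusted p = 0.0801 to 0.188). The median difference of the 12 was 0.065 in GMP and 0.20 in LSK, beside -0.017 and 0.0096 for all rows. On the other side of the cluster, Zfp775, the gene next to Gimap8, differed by -0.11 in GMP and by -0.078 in LSK and did not pass in any of the 5 comparisons.

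**Figure D3:**
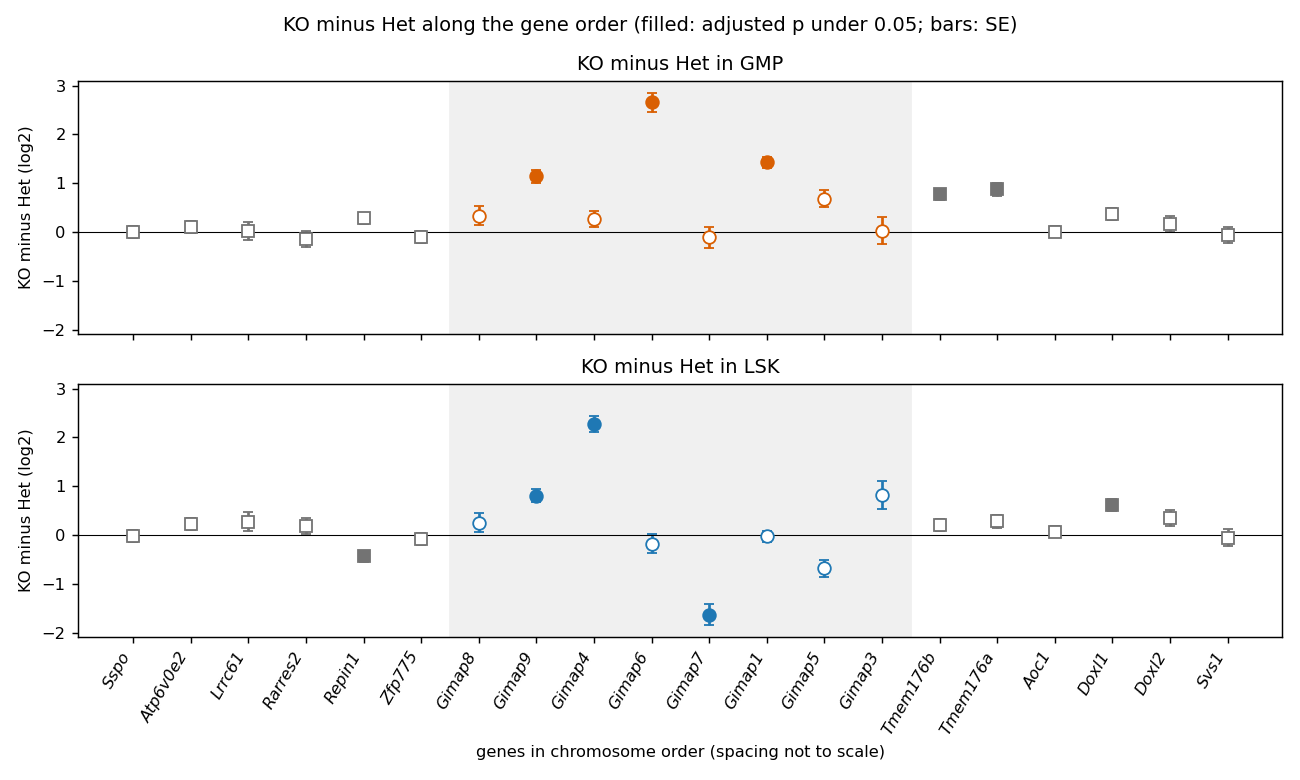
KO minus Het difference (log2) in GMP (upper panel) and LSK (lower panel) for the Gimap genes (circles, shaded) and the 6 nearest named coding genes on each side (squares), in chromosome order and not to scale; filled symbols passed at an adjusted p under 0.05 and bars are limma's SE. In GMP the filled members are Gimap9 (1.15), Gimap6 (2.66) and Gimap1 (1.43), and in LSK Gimap9 (0.81), Gimap4 (2.28) and Gimap7 (-1.63).

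For each member, the genes with the most similar profile were taken as those with the smallest root mean square difference from it after each gene was centred on its mean over the 8 arrays. The search ran over 3634 other genes whose values spanned at least 1 log2 unit, and the profiles are dominated by the step between GMP and LSK, which the arrays share. The closest match was that of Gimap9 with Samsn1, an adaptor gene of blood cells, at 0.13 log2 units, followed by the transcription factor gene Gata3 (0.15) and Gch1 (0.19). Gimap8 was closest to Cnrip1 (0.22), Gimap5 to Egfl7 (0.23), Gimap7 to Eya2 (0.23), Gimap1 to Maml2 (0.25) and Gimap3 to S100a6 (0.33). The 2 members with the widest range over the arrays had the largest distances, and this unscaled distance grows with the range. Gimap6 lay 0.47 from Emcn, the sialomucin gene of endothelium and blood stem cells, and Gimap4 0.66 from Stxbp4. Pearson r over the 8 arrays was 0.988 for Gimap6 with Emcn and 0.937 for Gimap4 with Stxbp4. It was 0.933 for Gimap3 with S100a6. Within the family the nearest member was farther away for each of the 8, for instance Gimap5 for Gimap1 (0.41), Gimap1 for Gimap6 (0.83) and Gimap8 for Gimap4 (0.91). The family offers far fewer genes to choose from than the 3634 outside it. The farther nearest member therefore does not show that members resemble other genes more than each other.

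Genes whose products are described as acting with GIMAP proteins, or that are related to them, were read from lists. Of all rows, 3.45% rose and 2.57% fell in GMP, and 3.02% rose and 4.71% fell in LSK. In lists this short, a count of 1 or 2 is not read as a change of the list. Of 12 measured genes of the Bcl2 family and of chaperones and kinases tied to GIMAP proteins, 2 rose and 0 fell in GMP and 1 rose and 1 fell in LSK. Bcl2l1, an inhibitor of cell death, rose in both, by 1.35 in GMP (adjusted p = 0.000456) and by 1.56 in LSK (adjusted p = 0.000159). Its relative Bcl2 fell by 1.90 in LSK (adjusted p = 0.000562) and differed by -0.82 in GMP (adjusted p = 0.0518). Mcl1, a partner described for Gimap5, rose by 0.60 in GMP (adjusted p = 0.0403), a call lost with any one GMP array left out (adjusted p = 0.113 to 0.260). The list medians were 0.081 in GMP and 0.0015 in LSK, beside -0.017 and 0.0096 for all rows.

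Of the 13 measured autophagy genes 0 passed limma's adjusted threshold in GMP or LSK, and 3 in GMP and 2 in LSK had an unadjusted p under 0.05. The largest differences were those of Gabarapl1 in GMP (0.57, adjusted p = 0.0732) and Atg7 in LSK (-0.44, adjusted p = 0.0992), and Gabarapl2, which encodes the described partner of Gimap6, differed by 0.21 in GMP and by 0.12 in LSK (adjusted p = 0.462 and 0.693). Of 10 other immune GTPase genes of the IRG, GBP and Mx types, which are induced by interferon, 2 rose and 1 fell in GMP, and 1 rose and 2 fell in LSK. Gbp8 rose by 1.21 in GMP and Gbp9 by 1.56 in LSK, while Gbp3 fell by 1.31 in GMP and Iigp1 fell by 1.00 in LSK. Each of these 4 calls was lost with at least 1 array left out: for Gbp8 Het GMP replicate 2 or either KO GMP array (adjusted p = 0.0579 to 0.0880), for Gbp9 Het LSK replicate 2 (adjusted p = 0.0939), for Gbp3 KO GMP replicate 2 (adjusted p = 0.0569) or Het GMP replicate 1 (adjusted p = 0.0839), and for Iigp1 Het LSK replicate 1 (adjusted p = 0.0569). Like the Gimap genes this list was lower in GMP than in LSK, with 4 of 10 falling in KO and 8 of 10 in Het and 0 rising in either. Of all rows, 2.39% were lower in GMP in KO and 9.6% in Het.

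Septins are cytoskeletal GTPases whose nucleotide binding domain is related to that of GIMAP proteins. Of 12 measured, 1 rose and 1 fell in GMP and 1 rose and 2 fell in LSK. The shares of all rows were 3.45% and 2.57% in GMP and 3.02% and 4.71% in LSK. Septin8 rose in both cell types, by 1.26 in GMP (adjusted p = 0.000279) and by 1.00 in LSK (adjusted p = 0.000824), and Septin1 fell by 1.70 in LSK (adjusted p = 8.35e-05). The medians of this list were -0.093 in GMP and -0.14 in LSK, beside -0.017 and 0.0096 for all rows.

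Because GIMAP genes are known from lymphocytes and, for some, from endothelium, the markers of such cells were read beside the family. Their counts, here and in the next paragraph, stand beside the shares of all rows. These were 3.45% higher and 2.57% lower in KO in GMP, and 3.02% higher and 4.71% lower in LSK. Of 12 measured T cell markers, 1 rose (Lat) and 1 fell (Cd28) in GMP, and the same held in LSK. The mean level of the list was 4.35 and 4.42 in KO GMP, 4.18 and 4.12 in Het GMP, 4.56 and 4.42 in KO LSK and 4.63 and 4.62 in Het LSK. None of the 4 measured chains of the T cell receptor complex passed between KO and Het in GMP or LSK. Cd3d averaged 3.15 in KO GMP, 2.995 in Het GMP, 2.89 in KO LSK and 3.04 in Het LSK, and Cd3g averaged 2.78 in KO GMP, 2.45 in Het GMP, 2.68 in KO LSK and 2.95 in Het LSK, all under the array medians. Cd3e averaged 5.01 in KO GMP, 4.86 in Het GMP, 4.91 in KO LSK and 5.18 in Het LSK, and Cd247 averaged 4.97 in KO GMP, 4.92 in Het GMP, 5.09 in KO LSK and 5.44 in Het LSK, near or above them. Lat, an adaptor that megakaryocytes also express, rose by 3.57 in GMP and by 1.42 in LSK. These were the largest differences of the list, and its mean levels include them. The median difference of the list was 0.003 in GMP and -0.26 in LSK. Cd28 fell by 0.77 in GMP (adjusted p = 0.0033); its fall of 0.48 in LSK was lost under every alternative tried (adjusted p = 0.0501 to 0.146). Of 7 NK cell markers 0 rose and 1 fell in GMP and 0 rose and 2 fell in LSK, and the list averaged 2.96 and 2.89 in KO GMP, 3.09 and 3.09 in Het GMP, 3.01 and 3.11 in KO LSK and 3.74 and 3.40 in Het LSK.

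Most B cell markers (7 of 11) and early lymphoid progenitor genes (10 of 11) passed as lower in KO LSK, where Gimap7 fell and Gimap4 and Gimap9 rose. Of all rows 4.71% passed as lower there. Of 11 B cell markers 0 passed limma's adjusted threshold in GMP (2 had an unadjusted p under 0.05) and 7 fell in LSK, and the list averaged 4.12 and 4.02 in KO GMP, 4.31 and 4.38 in Het GMP, 4.46 and 4.24 in KO LSK and 6.37 and 5.9955 in Het LSK. Of 11 early lymphoid genes 1 rose and 3 fell in GMP and 0 rose and 10 fell in LSK, with mean levels of 4.78 and 4.50 in KO GMP, 4.83 and 5.04 in Het GMP, 5.59 and 4.83 in KO LSK and 7.74 and 7.58 in Het LSK. Stem cell, megakaryocyte and erythroid genes were read beside the rises of Gimap6, Gimap1 and Gimap9 in GMP. Among stem cell genes, 7 of 13 rose and 0 fell in GMP and 3 rose and 3 fell in LSK, with mean levels of 6.10 and 6.17 in KO GMP, 4.72 and 4.89 in Het GMP, 7.20 and 6.74 in KO LSK and 6.74 and 7.11 in Het LSK. All 7 measured megakaryocyte and platelet markers rose in GMP, and 3 rose and 1 fell in LSK, with mean levels of 8.51 and 8.82 in KO GMP, 5.33 and 5.69 in Het GMP, 7.79 and 7.62 in KO LSK and 6.61 and 6.60 in Het LSK. Of 7 erythroid markers 3 rose and 1 fell in GMP and 2 rose and 3 fell in LSK, and of the 11 granulocyte and monocyte markers 0 rose and 2 fell in GMP and 1 rose and 3 fell in LSK. Of 13 endothelial markers, 4 rose and 1 fell in GMP and 2 rose and 1 fell in LSK, with mean levels of 5.26 and 5.26 in KO GMP, 4.64 and 4.64 in Het GMP, 5.82 and 5.61 in KO LSK and 5.48 and 5.61 in Het LSK. Emcn rose by 2.36 in GMP (adjusted p = 3.74e-05) and Esam by 2.67 (adjusted p = 7.78e-05), both also stem cell genes. Kdr rose by 2.22 in GMP (adjusted p = 0.000576) and by 1.35 in LSK (adjusted p = 0.00749), a call in LSK that was lost with Het LSK replicate 1 dropped (adjusted p = 0.0644), and Tie1 rose by 1.16 in GMP (adjusted p = 0.00516), both genes of endothelial receptors. Flt1 fell by 1.42 in GMP (adjusted p = 0.000683) and Pecam1 fell by 0.78 in LSK (adjusted p = 0.0313). Cdh5, the VE-cadherin gene, averaged 3.29 in KO GMP, 3.27 in Het GMP, 3.32 in KO LSK and 3.35 in Het LSK. The part of any of these cell types in the Gimap values was not tested, nor was cross-hybridisation between related members.

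**Figure D4:**
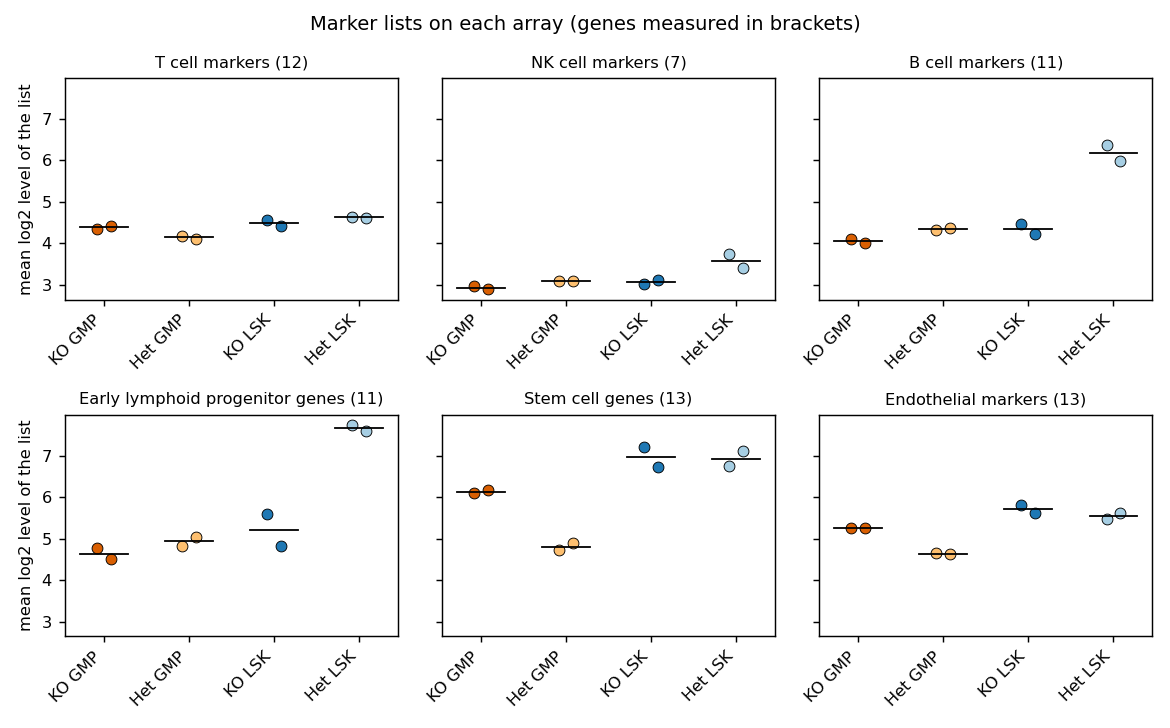
Mean log2 level of 6 marker lists on each array (1 point per array, line at the group mean) in KO GMP, Het GMP, KO LSK and Het LSK. T cell markers, Lat included, lie between 4.12 and 4.63 on all arrays. Early lymphoid genes read 5.59 and 4.83 in KO LSK against 7.74 and 7.58 in Het LSK. Stem cell genes read 6.10 and 6.17 in KO GMP against 4.72 and 4.89 in Het GMP.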

How the data were processed

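The deposited table holds log2 values from RMA, per the submitters' processing notes; RMA gives all arrays a common distribution, which hides any change common to every transcript. For its version and the genome build, the sources used here give nothing. About 200000 cells per sample were sorted at a purity above 98%, and RNA was amplified before labelling, per the labels and the design text. Of 35556 rows, 21789 carried 1 gene symbol in the platform annotation and were tested. Differences were fitted with limma 3.58.1 (R 4.3.3): 1 mean per group over all 8 arrays, 4 residual and 4.83 prior degrees of freedom, two-sided, Benjamini-Hochberg over all 21789 rows of each of 5 contrasts. A row passed where its adjusted p was below 0.05, and every SE comes from limma. In simulated data for KO against Het in LSK (21789 rows), 93% of rows changed by 1 log2 unit and 100% of rows changed by 2 were recovered. Unchanged rows gave 7 calls. The simulated noise was normal, independent between rows and arrays and as wide as limma's own estimate, with changes set in KO LSK only. It checks that the fit runs as meant, and recovery in the real data may be lower. With 2 arrays on each side, the smallest p of an exact permutation test is 0.333, so none was used. The labels call arrays biological replicates without saying which mouse each came from, so p-values measure the spread between arrays. The family, its members, the gene lists and the rule for named genes (all members; the neighbours; up to 4 passing genes per list or the 2 largest differences; the closest profiles) were chosen with earlier results of these data known; not every gene the rule takes is printed, and the levels of Cd3d, Cd3e, Cd3g, Cd247, Cdh5, Tie1, Flt1, Pecam1, Kit and Gabarapl2 were named after their values were seen. The same holds for Cd34. Alternatives were array-median scaling, all rows, no dim rows, a trended robust prior, only the 4 arrays compared, a replicate block and each array left out.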

Additional observations from a re-analysis of the deposited data

Results flagged for a closer look

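The following genes passed limma's interaction test (KO minus Het in GMP, minus the same in LSK). Among the Gimap genes the interaction was 2.83 for Gimap6, 1.52 for Gimap7, 1.45 for Gimap1 and 1.37 for Gimap5, and it was -2.01 for Gimap4. The calls of Gimap7 and Gimap5 were weak. Both were lost with most single arrays left out, and with every row of the table tested (adjusted p = 0.176 for Gimap7 and 0.128 for Gimap5). In GMP Gimap4, Gimap7 and Gimap5 lay under the array medians in both genotypes, where changes are understated. Among the genes named from the lists and the neighbours, it was 2.15 for Lat (adjusted p = 0.00523) and 1.86 for Emcn (adjusted p = 0.00264). It was 1.83 for Septin1 (adjusted p = 0.00225) and 1.64 for Iigp1 (adjusted p = 0.0104). Flt1 had a negative value, -1.38 (adjusted p = 0.0132), and was not rerun under the alternatives. The Iigp1 value missed the threshold with Het GMP replicate 2 left out (adjusted p = 0.0558) or with every row of the table tested (adjusted p = 0.0673). Groups of 2 arrays are too small for a search for single outlying arrays.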

How the results depend on the processing

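Of 561 values of the members under alternatives, 523 kept their sign and their side of the threshold, 22 lost a call, 4 gained one and 12 changed sign. No change of sign touched a called difference. Gimap1 in LSK became 0.062 with array medians subtracted and -0.087 to 0.036 with single arrays left out; Gimap3 in GMP became -0.021 and -0.18 to 0.24. With single arrays left out Gimap6 in LSK ran from -0.43 to 0.078 and Gimap8 in LSK from -0.034 to 0.54. The interaction of Gimap8 became -0.055 with array medians subtracted and ran from -0.20 to 0.37 with single arrays left out. The interaction of Gimap7 lost its call with array medians subtracted (adjusted p = 0.0507). The calls of Gimap1, Gimap4, Gimap6 and Gimap9, and that of Gimap7 in LSK, held under every alternative run for KO against Het.

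The number of members called was 3 to 4 with single arrays left out in LSK and in GMP, 3 to 5 for the interaction and 7 to 8 for GMP against LSK in KO and in Het. The interaction called 3 members with every row of the table tested and 3 of the 5 that remain without dim rows; GMP against LSK then called 5 of those 5 in KO and in Het, since fewer rows were tested. Over all rows, single arrays left out gave 994 to 1614 calls in LSK, 634 to 1586 in GMP, 223 to 705 for the interaction, 579 to 1539 for GMP against LSK in KO and 2078 to 4486 in Het. The moves of over 1.5 times came without either Het LSK array in LSK, any GMP array in GMP, any GMP array or Het LSK replicate 2 for the interaction, either KO GMP array for GMP against LSK in KO, and either Het GMP array or Het LSK replicate 2 in Het; the interaction called 3 members without either Het LSK array, either KO GMP array or Het GMP replicate 2. Testing all rows of the table gave 784 calls in GMP, 182 for the interaction and 756 for GMP against LSK in KO; fitting only the 4 arrays compared gave 1071 in LSK and 691 for GMP against LSK in KO. With array medians subtracted, the share of calls that were higher was 52.4% in LSK (39.0% as deposited), 697 of 1393 calls in GMP (752 of 1312 as deposited), 58.4% for the interaction (73.7% as deposited) and 67.1% for GMP against LSK in Het (45.1% as deposited).

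The replicate numbers are not said to mark mice. Deviations from the group means of same-numbered arrays were correlated across rows. Between LSK and GMP of the same genotype the correlation was 0.133 in Het and 0.179 in KO. Between groups of different genotype it was -0.143 to -0.0255. The replicate block gave 3 members in LSK, 3 in GMP, 5 for the interaction and 8 for GMP against LSK in each genotype, with 1570, 1224, 480, 1216 (KO) and 3602 (Het) calls over all rows. With arrays of the same genotype and number taken as 1 mouse, a block chosen after seeing the data, the interaction again called 5 members and GMP against LSK 8 in each genotype. No member has a second row, so that alternative was not run.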
